A study of Mus musculus with 8 samples.

Results

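Dazl, Ddx4, Dnd1, Nanos3, Nanos1, Ybx2 and Cpeb1 are 7 genes for RNA-binding proteins of germ cells, chosen by gene symbol from the count tables of E14.5 mouse fetal ovaries. They are 7 of 25239 gene symbols counted, and all 7 were among the 14249 genes tested. Whole ovaries of Bmpr1a fl/fl; Oct4-Cre Cre/WT embryos (Bmpr1a-cKO) were compared with ovaries of Bmpr1a fl/fl littermates (control), 4 libraries for each genotype, to ask how germ cell loss of the BMP receptor BMPR1A alters transcript levels at meiotic entry. All embryos were female, on a C57BL/6 background, and carried the floxed Bmpr1a alleles. The pregnant mothers were each injected with 1 mg 4-hydroxy tamoxifen and 0.5 mg progesterone on 3 days (E9.5, E10.5 and again E11.5), so controls were exposed to the drugs but carried no Cre. Recombination was driven from the Oct4 locus and was intended for germ cells, while the somatic cells of the ovary kept the receptor. Ovary pairs of 8 embryos a genotype from 6 litters were pooled, 2 pairs in each library on average, and the litters in each pool are not given in the sources used here.

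Around this stage female germ cells leave mitosis and enter meiotic prophase, and much of what they do next depends on controlling messages after transcription. DAZL binds untranslated regions of messages and promotes their translation, which licenses germ cells for meiosis and gametogenesis. DDX4 (also called MVH) is a DEAD-box RNA helicase of germ granules and a standard germ cell marker. DND1 and the NANOS proteins recruit deadenylases to messages, and NANOS3 and DND1 protect primordial germ cells from loss. YBX2 (also called MSY2) is a Y-box protein that packages and stores messages in oocytes and spermatids, and CPEB1 binds cytoplasmic polyadenylation elements and sets poly(A) tail length, including on messages of synaptonemal complex proteins.

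The libraries held 8562961 to 15365052 counts, of which the ribosomal RNA gene Rn45s took 13.1 to 16.7%. Values are given as CPM (the share of a library's counts on a gene, multiplied by 1000000, after TMM scaling of library sizes), and Log2FC is the edgeR estimate of Bmpr1a-cKO over control with its standard error (SE). A gene was called when its absolute Log2FC was above 0.5 and its FDR below 0.05, which held for 1449 genes (10.2%), 871 of them higher (6.11%) and 578 lower (4.06%) in Bmpr1a-cKO ovaries. Bmpr1a itself read 199 to 236 CPM in controls against 185 to 209 CPM in Bmpr1a-cKO ovaries (Log2FC -0.16, FDR = 0.0692). Because somatic cells keep the gene and whole-gene counts were used, this value does not check the genotype labels. Germ cell identity of part of the tissue was plain from 13 other germ cell markers, whose summed level was 707 to 918 CPM in controls against 576 to 871 CPM in Bmpr1a-cKO ovaries.

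Of the 7 regulators, Dazl, Dnd1 and Nanos3 were upregulated in Bmpr1a-cKO ovaries, Ybx2 was downregulated, and Ddx4, Nanos1 and Cpeb1 were not called. The stretches before the transcription start of the abundant gene that rose (Dazl), a gene that rose from a low level (Nanos3) and the gene that fell (Ybx2) are printed for comparison of their base composition. They come from RefSeq on GRCm38.p6 (the assembly of mm10), read 5′ to 3′ on the gene's strand, and are cut back to bases outside the exons of GENCODE vM21. Capitals mark matches to 4 motifs searched on both strands, CACGTG (E-box), TCCCGC (E2F), CNCCTCAG (STRA8/MEIOSIN) and GTCTAGAC (palindromic SMAD element). The RefSeq start of Nanos3 lies inside the longer GENCODE gene, so its stretch is intronic in GENCODE vM21. No motif overlapped another in these stretches.
Dazl, chr17:50293637-50293870, minus strand: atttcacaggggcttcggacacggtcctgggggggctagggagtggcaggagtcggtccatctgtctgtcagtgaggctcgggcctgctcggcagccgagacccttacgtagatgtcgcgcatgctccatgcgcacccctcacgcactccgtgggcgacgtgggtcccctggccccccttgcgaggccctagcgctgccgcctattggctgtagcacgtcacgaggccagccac
Nanos3, chr8:84176553-84176802, minus strand: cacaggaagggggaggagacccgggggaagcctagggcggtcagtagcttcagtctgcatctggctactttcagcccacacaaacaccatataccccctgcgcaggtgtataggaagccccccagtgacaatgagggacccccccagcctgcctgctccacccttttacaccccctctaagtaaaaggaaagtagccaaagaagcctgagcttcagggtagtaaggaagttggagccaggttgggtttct
Ybx2, chr11:69935649-69935795, plus strand: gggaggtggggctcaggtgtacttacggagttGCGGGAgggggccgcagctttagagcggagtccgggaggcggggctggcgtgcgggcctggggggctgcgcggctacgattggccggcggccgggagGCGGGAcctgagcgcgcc

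In the full 250 bases before the start, Ybx2 had 35 CpG dinucleotides and an observed over expected CpG ratio of 1.02, at percentile 95.2 of 32851 RefSeq windows of that length. Dazl had 20 CpG and a ratio of 0.71, and Nanos3 had 3 CpG and a ratio of 0.151, at percentile 22.6. The windows of the pair of upregulated genes searched thus differed in CpG content, though the Nanos3 window is not upstream of its GENCODE gene. Ybx2 held 2 E2F matches, both on the other strand, and 16.9% of all windows held at least 1. Dazl, Nanos3, Nanos1 and Cpeb1 held none of the motifs, and the Cpeb1 window, like that of Nanos3, lies inside its GENCODE gene. Ddx4 held 1 E-box 29 to 24 bases before its RefSeq start (6.02% of windows), inside its GENCODE untranslated exon, and 1 E2F match further upstream on the other strand. The E-box is shown with its flanks because Ddx4 is the reference for the ratios given further on.
Ddx4, chr13:112652322-112652351, minus strand: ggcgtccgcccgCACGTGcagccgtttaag
A second RefSeq start of Ybx2 lies inside the gene, and the window before it held 1 STRA8/MEIOSIN match (6.42% of windows) and 1 E2F match, both in coding sequence. The STRA8/MEIOSIN match is shown because the comparison falls at meiotic entry.
Ybx2, chr11:69936137-69936166, plus strand: gctgctgggacCCCCTCAGcgcccggccct
The SMAD palindrome, found in 0.167% of windows, was in none of the windows searched, and Dnd1 was not searched. These matches describe letters in a window and no binding was measured.

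**Figure D1:**
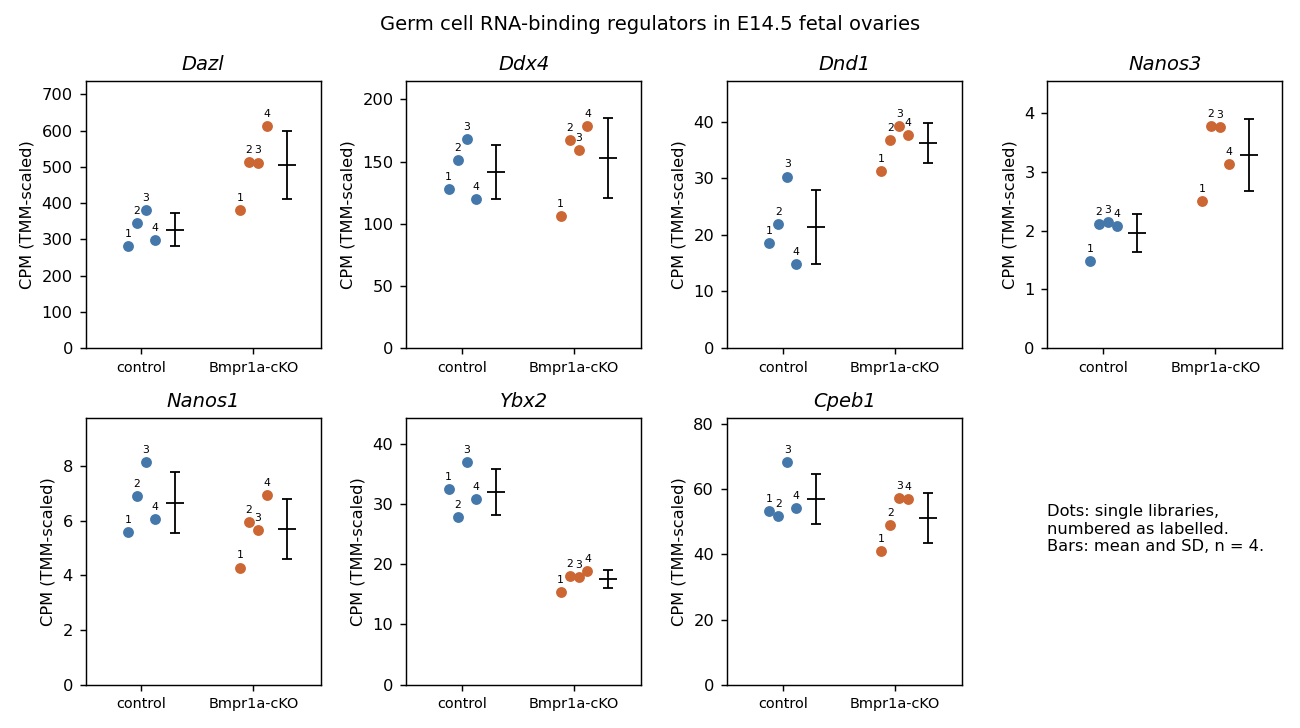
Level of each regulator (vertical axes, TMM-scaled CPM, starting at 0) in the 4 control and the 4 Bmpr1a-cKO libraries (horizontal axes); dots are single libraries with their replicate number, and bars give the mean and SD. The genotypes do not overlap for Dazl, Dnd1, Nanos3 and Ybx2, and they overlap for Ddx4, Nanos1 and Cpeb1.

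The control and Bmpr1a-cKO libraries did not overlap for 4 of the 7 regulators, against 27.9% of all genes tested. Calls were made for the same 4 of 7, against the 10.2% above, but the genes were picked with earlier results of these data known, so this excess is a description. In bulk ovaries a change in the number of germ cells and a change in RNA per germ cell cannot be told apart.

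Dazl (ENSMUSG00000010592.9, chr17:50279395-50293636 in mm10, minus strand, with identifiers and positions of all 7 genes from GENCODE vM21) was the most abundant of the 7. Control libraries 1 to 4 read 282, 345, 381 and 297 CPM, and Bmpr1a-cKO libraries 1 to 4 read 382, 513, 512 and 614 CPM. The genotypes were apart, although the highest control and the lowest Bmpr1a-cKO library nearly touched. The mean rose from 326 ± 45.3 to 505 ± 95 CPM (SD, n = 4), 1.55-fold (Log2FC 0.63, SE 0.12, FDR = 0.00101). Between 3208 and 9007 counts stood behind each value. Boll, the meiotic relative of Dazl in the DAZ family, was downregulated from 15.4 ± 2.21 to 6.11 ± 2.05 CPM (Log2FC -1.31, SE 0.18, FDR = 8.84e-05), so the pair of DAZ family genes was called in opposite directions.

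Ddx4 (ENSMUSG00000021758.14, chr13:112598333-112652475, minus strand) did not pass the test. Control libraries read 128, 151, 168 and 120 CPM and Bmpr1a-cKO libraries 106, 167, 159 and 179 CPM. The lowest and the highest of the 8 values both belonged to Bmpr1a-cKO libraries. Means were 142 ± 21.9 and 153 ± 32.3 CPM (SD, n = 4), with a Log2FC of 0.11 (SE 0.13, FDR = 0.561). The 95% interval of the fold, 0.89 to 1.32, includes both lower and higher levels. Without Bmpr1a-cKO 1 the Log2FC was 0.25 with an FDR of 0.0466, short of the fold needed for a call. Ddx3x, a ubiquitous DEAD-box helicase of the same family, was called higher, from 400 ± 50.3 to 575 ± 103 CPM (Log2FC 0.53, FDR = 0.00278), with overlapping libraries. That call was lost without control 1 (Log2FC 0.47), control 3 (0.49), Bmpr1a-cKO 2 (0.45) or Bmpr1a-cKO 4 (0.47), with library size alone (0.47) and with scaling to Ddx4 (0.41).

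Dnd1 (ENSMUSG00000044595.10, chromosome 18, minus strand) was upregulated. Control libraries read 18.6, 21.9, 30.3 and 14.9 CPM, and Bmpr1a-cKO libraries 31.3, 36.7, 39.3 and 37.6 CPM. Control 3 stood close under the Bmpr1a-cKO libraries and the other controls well below. The mean rose from 21.4 ± 6.57 to 36.2 ± 3.44 CPM (SD, n = 4), 1.72-fold (Log2FC 0.78, SE 0.15, FDR = 0.00151). An exon overlap of 140 bases with Wdr55 on the opposite strand covers 5.8% of the exon bases of Dnd1, and whether reads were counted by strand is not given in the sources used here.

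Nanos3 (ENSMUSG00000056155.6, chr8:84173731-84185217, minus strand) was upregulated from a low level. Control libraries read 1.48, 2.12, 2.15 and 2.08 CPM, and Bmpr1a-cKO libraries 2.5, 3.79, 3.76 and 3.13 CPM. No libraries of the genotypes overlapped. The mean rose from 1.96 ± 0.321 to 3.3 ± 0.611 CPM (SD, n = 4), 1.69-fold (Log2FC 0.76, SE 0.21, FDR = 0.0117). Only 18 to 51 counts stood behind these values, and the 95% exact Poisson interval of the lowest library, 0.876 to 2.34 CPM, reached over the other controls (it covers counting error only). The intervals of controls 2 (1.36 to 3.16 CPM), 3 (1.36 to 3.23 CPM) and 4 (1.43 to 2.92 CPM) covered the value of Bmpr1a-cKO 1. Those of controls 2 and 3 also covered Bmpr1a-cKO 4, while Bmpr1a-cKO 2 and 3 lay above every control interval.

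Nanos1 (ENSMUSG00000072437.4, chr19:60755987-60759914, plus strand, a gene of 1 exon) was not called. Control libraries read 5.58, 6.9, 8.14 and 6.05 CPM and Bmpr1a-cKO libraries 4.29, 5.94, 5.65 and 6.95 CPM, overlapping over most of their ranges. Means were 6.67 ± 1.12 and 5.71 ± 1.1 CPM (SD, n = 4), with a Log2FC of -0.19 (SE 0.17, FDR = 0.427) and a 95% interval of the fold from 0.687 to 1.12. Nanos2, the male germ cell member of the family, had at most 8 counts in a library and was not tested.

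Ybx2 (ENSMUSG00000018554.13, chr11:69935796-69941605, plus strand) was the only regulator called lower. Control libraries read 32.5, 27.8, 36.9 and 30.8 CPM, and Bmpr1a-cKO libraries 15.4, 18, 17.9 and 18.8 CPM. Every control was well above every Bmpr1a-cKO library. The mean fell from 32 ± 3.8 to 17.5 ± 1.49 CPM (SD, n = 4), to 0.552 of control (Log2FC -0.86, SE 0.096, FDR = 1.18e-05). The broadly expressed Y-box genes lay on the other side of 0. Ybx1 read 287 ± 24.7 and 346 ± 12.2 CPM (Log2FC 0.27, FDR = 0.00545), and Ybx3 149 ± 5.21 and 171 ± 9.58 CPM (Log2FC 0.20, FDR = 0.0186), both short of the fold needed for a call.

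Cpeb1 (ENSMUSG00000025586.17, chr7:81347026-81455465, minus strand) was not called. Control libraries read 53.3, 51.8, 68.3 and 54.3 CPM and Bmpr1a-cKO libraries 41.1, 48.9, 57.2 and 57 CPM. Control 3 was the highest and Bmpr1a-cKO 1 the lowest, and the remaining 6 interleaved. Means were 56.9 ± 7.64 and 51.1 ± 7.69 CPM (SD, n = 4), with a Log2FC of -0.15 (SE 0.11, FDR = 0.323) and a 95% interval of the fold from 0.771 to 1.06. Cpeb2 was downregulated from 43.8 ± 1.65 to 28.7 ± 2.92 CPM (Log2FC -0.60, FDR = 4.83e-05) and Cpeb4 from 51.4 ± 5.03 to 35.6 ± 2.6 CPM (Log2FC -0.52, FDR = 0.000229). Cpeb3 read 16.4 ± 1.16 and 13.2 ± 1.25 CPM (Log2FC -0.32, FDR = 0.0226). The call of Cpeb4 was lost without control 1 or control 4 (Log2FC -0.49 in both) and without Bmpr1a-cKO 1 (-0.48), and with scaling to germ cell markers (-0.47, FDR = 0.0563) or to Ddx4 (-0.64, FDR = 0.0872). The difference between Cpeb1 and the other CPEB genes was not tested.

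**Figure D2:**
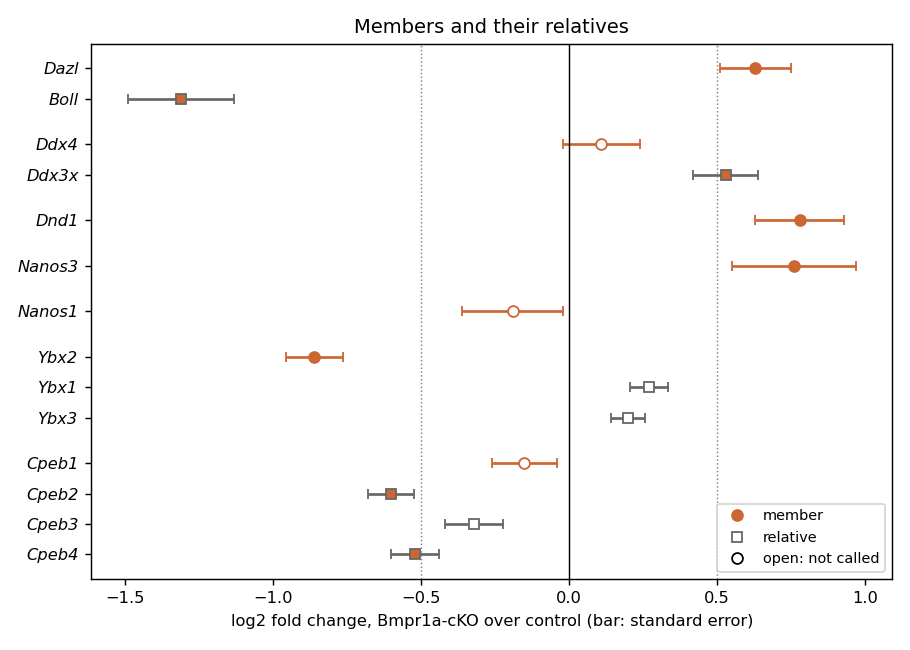
Log2FC of Bmpr1a-cKO over control (horizontal axis) for the 7 regulators (circles) and the 7 relatives tested (squares), with bars of 1 standard error, filled where called, and dotted lines at the fold threshold. Boll lies at -1.31 below Dazl at 0.63, and Ybx2 at -0.86 lies opposite Ybx1 at 0.27 and Ybx3 at 0.20.

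Over the 7 relatives tested of 8 listed, 1 was called higher and 3 lower, beside 6.11% and 4.06% of all genes. The median Log2FC was -0.32 against -0.004 over all genes. All 7 had an FDR below 0.05 at some fold, which held for 29.8% of all genes. The direction of each of the 7 was kept under the 4 other scalings tried.

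Levels between genes were compared as CPM per kilobase of exon (CPM/kb). In control ovaries the order of mean levels was Dazl (85.4), Ddx4 (47.1), Ybx2 (17), Cpeb1 (13.6), Dnd1 (8.89), Nanos3 (2.12) and Nanos1 (1.7). Library ranges overlapped between Ybx2 and Cpeb1, between Cpeb1 and Dnd1, and between Nanos3 and Nanos1, although the higher gene was above the next in all 4 libraries each time. In Bmpr1a-cKO ovaries the order was Dazl (132), Ddx4 (50.7), Dnd1 (15), Cpeb1 (12.2), Ybx2 (9.29), Nanos3 (3.57) and Nanos1 (1.45), with overlap between Dnd1 and Cpeb1 and between Cpeb1 and Ybx2. Ybx2 and Dnd1 thus changed places, on either side of Cpeb1. Over both genotypes, the mean level of Dazl was at percentile 98.7 and that of Ddx4 at percentile 96.1 of 13960 genes with a length, while Nanos3 and Nanos1 were at percentiles 30.2 and 20.

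Ratios within a library need no scaling between libraries. They were taken from CPM with a prior count of 2, a small count added to each gene and scaled to library size. Dazl over Ddx4 read 2.21, 2.28, 2.26 and 2.46 in control and 3.6, 3.08, 3.22 and 3.43 in Bmpr1a-cKO libraries. The genotypes were far apart and the spread within them was small, with a coefficient of variation of 4.83% in control and 6.98% in Bmpr1a-cKO, compared with 13.9% and 18.8% for Dazl CPM. The ratio was 1.44-fold higher in Bmpr1a-cKO ovaries (p = 0.0286 by a two-sided exact permutation test, which can give no smaller p with 4 against 4 libraries, and adjusted p = 0.0429 over 6 ratios). Dnd1 over Ddx4 was 1.63-fold higher, again with no overlap (exact adjusted p = 0.0429).

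Ybx2 over Ddx4 read 0.256, 0.185, 0.22 and 0.257 in control and 0.146, 0.109, 0.113 and 0.106 in Bmpr1a-cKO libraries. It fell to 0.517 of control (exact adjusted p = 0.0429). Nanos1 over Ddx4 read 0.045 to 0.0516 in controls against 0.0365 to 0.042 in Bmpr1a-cKO ovaries. Here, unlike in CPM, the libraries did not overlap, and the ratio was 0.804 of control (exact adjusted p = 0.0429). Nanos3 over Ddx4 was 1.53 times control with overlapping libraries (exact adjusted p = 0.0686, or 0.0343 with a prior count of 0.5 in place of 2). The overlap was between control 4 (0.0186) and Bmpr1a-cKO 4 (0.0184), with 33 and 46 Nanos3 counts, and it depends on the prior count. Cpeb1 over Ddx4 was 0.84 of control (exact p = 0.114).

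**Figure D3:**
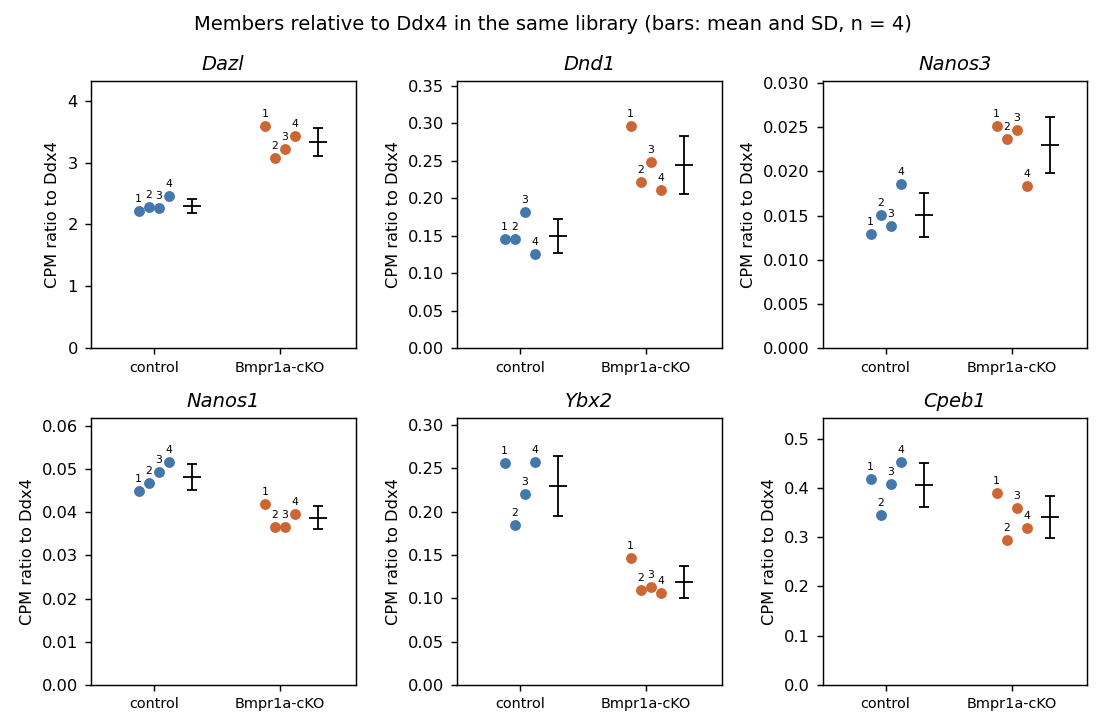
CPM of each regulator divided by CPM of Ddx4 in the same library (vertical axes, starting at 0) in control and Bmpr1a-cKO libraries (horizontal axes), with dots for single libraries and bars for mean and SD. Dazl and Dnd1 lie higher and Ybx2 and Nanos1 lower in all 4 Bmpr1a-cKO libraries.

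Against the mean of 13 germ cell markers that leave the regulators out, Dazl was 1.62-fold, Dnd1 1.83-fold and Nanos3 1.71-fold higher and Ybx2 was at 0.58 of control, each with libraries apart (exact permutation p = 0.0286, adjusted p = 0.05 over 7 ratios, which is at and not below the threshold). Ddx4 was at 1.12 (exact p = 0.114), Nanos1 at 0.901 (exact p = 0.143) and Cpeb1 at 0.942 of control (exact p = 0.114), all with overlapping libraries. The marker list was itself mixed, with Tex19.1 and Tdrd5 called higher, Mael, Tdrd9 and Mov10l1 called lower and 8 not called, beside 10.2% of all genes called. Tex19.1 and Sall4 are also among the messages known to be bound by DAZL that are listed further on. Its mean log2 CPM was 5.23 ± 0.19 for controls against 5.16 ± 0.23 for Bmpr1a-cKO ovaries (SD, n = 4, exact permutation p = 0.657). Dazl over Ybx2, the most abundant upregulated regulator over the downregulated one, read 8.64, 12.4, 10.3 and 9.61 in control and 24.6, 28.3, 28.4 and 32.4 in Bmpr1a-cKO libraries. That is 2.79-fold and is given without a test because the pair was picked for its contrast.

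Control 3 was the highest control for all 7, and Bmpr1a-cKO 1 was the lowest Bmpr1a-cKO library for all 7, while the lowest control was one of 3 libraries and the highest Bmpr1a-cKO library one of 3, depending on the gene. These were also the libraries with the highest and lowest mean of the germ cell markers, at 5.50 and 4.85 log2 CPM, and Bmpr1a-cKO 1 had the lowest total count. The part of these libraries in the results was measured by leaving them out. Without Bmpr1a-cKO 1 the Log2FC was 0.75 for Dazl and 0.85 for Nanos3, and without control 3 it was 0.98 for Dnd1 and -0.79 for Ybx2, and the 4 calls were kept in every such fit.

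**Figure D4:**
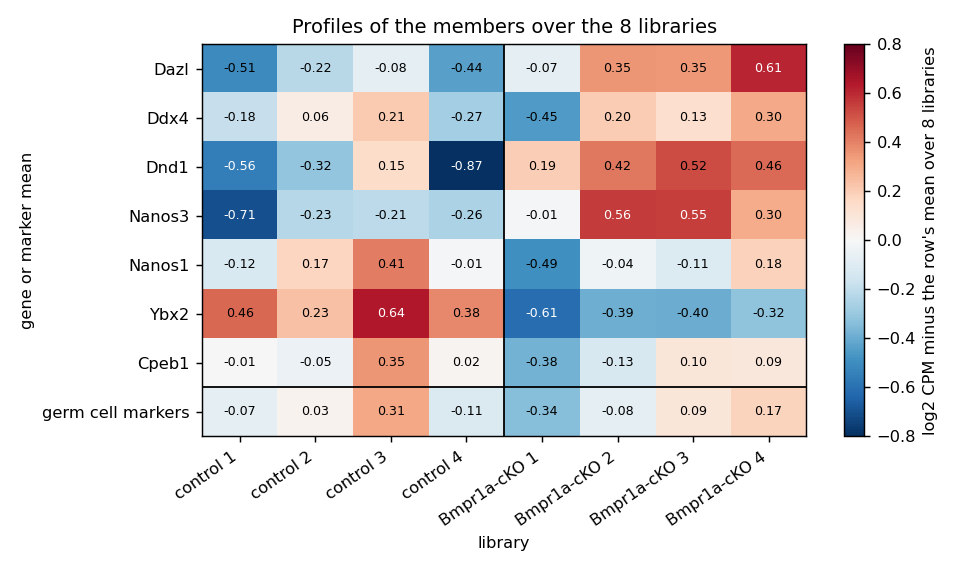
Log2 CPM of each regulator and of the mean of 13 germ cell markers (rows) in each library (columns), minus the row's mean over the 8 libraries, with the value printed in each cell. Dazl runs from -0.51 in control 1 to 0.61 in Bmpr1a-cKO 4, and Ybx2 from 0.64 in control 3 to -0.61 in Bmpr1a-cKO 1.

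Likeness of profiles was measured as the root mean square difference of log2 CPM over the 8 libraries after centring each gene on its own mean, where a smaller value is a closer profile. Because the profiles hold the genotype difference, the direction and FDR of a near gene follow from this choice and are descriptions. The gene closest to Dazl was Fam169a (0.057), which was upregulated (Log2FC 0.68, FDR = 0.000332), and next was Enpp4 (0.082). Ybx2 was closest to Esco2 (0.079), which encodes a cohesin acetyltransferase and was downregulated (Log2FC -0.88, FDR = 2.52e-06), and to Fgd6 (0.086). Cpeb1 was closest to Tex14 (0.058), a gene of germ cell bridges, and to Tdrd1 (0.064), neither of which was called.

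Dnd1 was nearest to Mapk8ip2 (0.068) and to Trim71 (0.09), an RNA-binding ubiquitin ligase gene that was upregulated from 55.2 to 99.3 CPM. Nanos3 was nearest to Alg6 (0.095) and Hapln3 (0.12), where the call of Hapln3 was kept under 8 of 18 alternatives. Ddx4 was nearest to Tab3 (0.075) and Bclaf3 (0.083), and Nanos1 to Hells (0.068) and BC051226 (0.084), with none of these called. Among the regulators, Nanos1 and Cpeb1 were closest to each other (0.13), Dazl and Nanos3 were at 0.18, and Ybx2 was no nearer than 0.36 to any other.

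Other RNA regulators of germ cells gave a mixed picture. Of 7 listed, 5 were tested, edgeR called 1 lower and 0 higher with all 5 at an unadjusted p below 0.05, DESeq2 called 2 and limma-voom 1, and the median Log2FC was -0.31 (0.11 over all 7 without the filter on low counts, which adds Zar1 and Zar1l at 3 counts or fewer). Meioc, which acts with YTHDC2 to clear mitotic messages at meiotic entry, was downregulated from 122 ± 11.9 to 36.4 ± 14.9 CPM (Log2FC -1.72, SE 0.19, FDR = 1.08e-05). Ythdc2 read 58.2 ± 4.08 and 41.3 ± 1.97 CPM (Log2FC -0.49, FDR = 9.76e-05), just short of the fold needed for a call. Rbm46 was also lower (Log2FC -0.31, FDR = 0.0629). Elavl2 (Log2FC 0.45, FDR = 0.00976) and Tial1 (Log2FC 0.24, FDR = 0.00925) were on the other side of 0, and neither was called. By FDR alone 4 of the 5 passed, against 29.8% of all genes, while 10.2% of all genes were called.

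Of 20 genes for poly(A) and cap partners of CPEB1 and DAZL, through which these proteins act on messages, 18 were tested, 1 was called higher, 1 lower and 16 were not called, beside 10.2% of all genes called, and the median Log2FC was 0.16. By FDR alone 12 of the 18 passed, against 29.8% of all genes. Cpsf4, a cleavage and polyadenylation factor subunit, read 29.3 ± 1.23 and 42 ± 2.32 CPM (Log2FC 0.52, FDR = 5.73e-05), and its call was lost without control 2 or Bmpr1a-cKO 2 (Log2FC 0.49 in both), with library size alone (0.47) and with scaling to Ddx4 (0.43). Patl2, a translational repressor gene of oocytes, read 5.18 ± 0.926 and 3.16 ± 1.12 CPM (Log2FC -0.68, FDR = 0.0318). Its call was lost without control 1 (Log2FC -0.66), control 3 (-0.58), control 4 (-0.72), Bmpr1a-cKO 1 (-0.53) or Bmpr1a-cKO 2 (-0.57), and with scaling to germ cell markers (FDR = 0.0704) or to Ddx4 (FDR = 0.0598).

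Among 17 genes for deadenylases and other partners of NANOS and DND1, edgeR called 0 in either direction, beside 10.2% of all genes called. The median Log2FC was 0.11. By FDR alone 7 of the 17 passed, against 29.8% of all genes, 8 had an unadjusted p below 0.05, and 0 were called by DESeq2 or limma-voom.

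Messages known to be bound by DAZL were called in both directions. Of 9 tested, 2 were called higher, 1 lower and 6 were not called, beside 10.2% of all genes called. The median Log2FC was 0.15. By FDR alone 5 of the 9 passed, against 29.8% of all genes. These included Suz12 (Log2FC 0.45, FDR = 0.00014) and Sycp1 (Log2FC -0.47, FDR = 0.0127), both short of the fold needed for a call. Sycp3, an axial element gene of the meiotic chromosome, was downregulated from 76.6 ± 6.17 to 29.3 ± 14 CPM (Log2FC -1.36, FDR = 0.000322). Tex19.1, which restrains transposons in germ cells, was upregulated from 52.4 ± 11.9 to 93.3 ± 21.7 CPM (Log2FC 0.84, FDR = 0.00098). Sox2, a pluripotency factor gene, was upregulated from 27.2 ± 5.59 to 46.6 ± 6.18 CPM (Log2FC 0.80, FDR = 0.000246). RNA levels do not measure translation, which is where DAZL acts.

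Markers of other cells of the ovary moved with genotype in part. For comparison, 10.2% of all genes tested were called and 29.8% had an FDR below 0.05. Of 8 pregranulosa genes, 1 was called, the lower Foxl2, and 7 had an FDR below 0.05, with a median Log2FC of -0.33 and summed levels of 1373 to 1648 CPM in controls against 1164 to 1386 CPM in Bmpr1a-cKO ovaries. Of 5 macrophage genes, 4 were tested and Adgre1 and C1qa were called higher, with sums of 23.2 to 28.3 and 31.3 to 38.8 CPM. Of 6 stromal genes edgeR called 0, with 0 at an unadjusted p below 0.05, and of 5 endothelial genes it called 0, with 1 at an unadjusted p below 0.05. Of 5 erythroid genes, 3 were tested and edgeR called 0, with 1 at an unadjusted p below 0.05 and with Hba-a1 and Hbb-bt at 0 counts. DESeq2 and limma-voom also called 0 in these 3 lists. Mesonephric and Sertoli markers summed to at most 27.5 and 17.2 CPM in any library, with 1 of 5 called in each list, Gata3 and Cyp26b1, both lower. The part of these cells in the values of the 7 regulators was not tested.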

How the data were processed

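Whole-ovary RNA of 8 libraries was sequenced with strand-specific libraries. The authors deposited raw counts of reads per gene symbol. Per the submitters' processing notes and the study's methods, reads were cleaned with Trimmomatic 0.39, checked with FastQC 0.11.9, and mapped to mm10 and counted with STAR 2.5.2. The annotation and strand setting of the counting are not given in the sources used here. A deposited CPM table of the same libraries was not used, because the counts carry the depth. Totals were 8562961 to 15365052 counts, and the p-values measure the spread between pools.

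Genes were filtered with filterByExpr and tested with edgeR 4.0.16 in R 4.3.3 (TMM scaling, quasi-likelihood F test on genotype, two-sided, Benjamini-Hochberg FDR over all genes tested). SE was derived from the estimate and its F statistic. Ratios used log2 CPM with a prior count of 2 and exact permutation tests over 70 arrangements. Lengths were exon unions from GENCODE vM21, and promoter sequences were from RefSeq (GRCm38.p6), with 6 of 7 regulators searched. The edgeR fit was tested on simulated data, and the other steps were not. The regulators and gene lists were chosen with earlier results of these data known. Named genes were all regulators, every tested relative, every called gene of the related lists, and the 2 nearest profiles of each regulator. Other genes (Ythdc2, Rbm46, Elavl2, Tial1, Suz12, Sycp1 and markers) were named after their values were seen. Alternatives covered scaling, tool (DESeq2 1.42.0, limma 3.58.1), filters, thresholds, prior count, a replicate block and leaving out each library.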

Additional observations from a re-analysis of the deposited data

Results flagged for a closer look

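Values of 40 groups of 4 libraries were examined for a library far from its group, and such a gap arises by chance in about 1 in 20 groups. Nanos3 in control 1, at 1.48 CPM, lay below the other 3 controls at 2.08 to 2.15 CPM, a gap of 0.894 of the group's range that rests on 18 counts. Cpeb1 in control 3, at 68.3 CPM, lay above the other 3 controls at 51.8 to 54.3 CPM, a gap of 0.848 of the range. Without these libraries the Log2FC was 0.65 for Nanos3, which was still called, and -0.06 for Cpeb1, which was still not called.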

How the results depend on the processing

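Dazl, Dnd1 and Nanos3 were called higher and Ybx2 lower under each alternative run except scaling to Ddx4. Under scaling to Ddx4 only 1 regulator, Dnd1, was called higher, Ybx2 stayed called lower, and 725 genes were called in all. Dazl (Log2FC 0.53, FDR = 0.239) and Nanos3 (Log2FC 0.63, FDR = 0.371) kept the fold but not the FDR, and the cause was not tested. With an FDR below 0.05 as the only criterion 4242 genes were called, by construction more. Scaling to germ cell markers gave 979 genes higher and 366 lower and library size alone 743 and 722, against 871 and 578. Leaving out single libraries gave 1288 to 1627 genes called, and Log2FC of 0.52 to 0.75 for Dazl, 0.62 to 0.98 for Dnd1, 0.65 to 0.85 for Nanos3 and -0.93 to -0.79 for Ybx2. Ddx4 ranged from 0.023 to 0.25, Nanos1 from -0.31 to -0.09 and Cpeb1 from -0.22 to -0.06, none of them called. Of the nearest profiles, Bclaf3 turned to -0.014 under scaling to Ddx4, and BC051226 ranged from -0.18 to 0.012, with the last value without Bmpr1a-cKO 1; neither was called in any fit, and the cause was not tested. In every fit at both call thresholds, counts of called genes in the lists of related genes moved by at most 1 in each direction. With the FDR as the only criterion more passed, by construction. These were 7 of 7 relatives, 4 of 5 other germ cell RNA regulators and 12 of 18 poly(A) and cap partners. Among partners of NANOS and DND1 7 of 17 passed, and among messages bound by DAZL 5 of 9. Ratios to Ddx4 could not keep their calls with 7 libraries, since 3 against 4 give an exact p of at least 0.0571, or with a replicate block, where 4 pairs give at least 0.125, and no ratio changed direction. With a prior count of 0.5 Nanos3 over Ddx4 was 0.64 and passed the test. On the log2 scale, without single libraries Dazl over Ddx4 was 0.49 to 0.57, Dnd1 0.61 to 0.80, Nanos1 -0.36 to -0.28 and Ybx2 -1.06 to -0.89, and with the block they were 0.53, 0.70, -0.32 and -0.95. The replicate numbers were not taken as pairs, since same-numbered deviations correlated at 0.198, 0.161 and 0.108 for numbers 1 to 3 but at -0.087 for number 4. Control 3 correlated best with Bmpr1a-cKO 4 (0.182). Neither the libraries of number 3 nor those of number 4 were each other's best match. With a replicate block 1457 genes were called and the same 4 regulators. Depth limits Nanos3 most, at 18 to 51 counts a library.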
